A study of Cicer arietinum with 18 samples.

Results

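The responses of 2 chickpea (Cicer arietinum) genotypes, ICC3996 and Lasseter, were compared after treatment with each of 3 defence-signalling compounds. The comparison used 12 of the 18 samples of the series, 6 of ICC3996 and 6 of Lasseter. They were chosen by the genotype in their titles and paired by compound and harvest time. The compounds were ACC (aminocyclopropane carboxylic acid), MeJA (methyl jasmonate) and SA (salicylic acid), and each was followed by a harvest at 3 h and at 27 h, which gave 6 pairs. Each sample set RNA from treated shoots, stem and leaf pooled, of seedlings aged 14 days against RNA from untreated control shoots of the same genotype on a spotted 2-colour cDNA array. The other 6 samples were the third genotype, FLIP94-508C, under the same treatments and times, and are used here only to place it beside the pair.

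ICC3996 is known as a line resistant to ascochyta blight, the disease caused by the fungus Ascochyta rabiei, and Lasseter as a susceptible cultivar. SA accumulates after attack by biotrophic pathogens and is a signal of systemic acquired resistance. MeJA is the methyl ester of jasmonic acid, the hormone of wounding and of defence against chewing insects and many necrotrophic fungi. ACC is the direct precursor of ethylene, which often acts together with jasmonate, while SA and jasmonate signalling can oppose each other. The question was which features responded differently in the resistant line and the susceptible cultivar, and under which compound and time.

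Every value is a log2 ratio that the authors averaged over 3 biological replications with dye swaps, so no single value has an error of its own and the pairs are the only repeats. The ratio is likely treated over control, since channel 1 of each sample is labelled control and channel 2 treatment, but no label states the direction of the deposited values. A positive difference below means a higher ratio in ICC3996. If the ratio ran the other way every sign would turn, so that each count given as below control would be a count above control, and each feature given as higher in ICC3996 would be lower in it. Whether the compounds of 1 time were set against the same untreated plants of a genotype is not known from the labels. If they were, the pairs of 1 time would share a control, and the fits below, which treat the pairs as independent, do not allow for it. In such bulk tissue, fewer cells of a type and less RNA per cell cannot be told apart. The 715 array features carry identifiers that start with CA, LS or U, and 0 of them matched the reference gene table, so features are reported by identifier, and no gene, sequence or tissue marker could be assigned.

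A difference between ICC3996 and Lasseter could be formed in all 6 pairs for 456 of the 715 features and in at least 4 pairs for 550, which were the features tested over all pairs. In 105 features it could be formed in 1 to 3 pairs and in 60 in none. Between 517 and 602 features were measured in both samples of a pair. Omitted spots were uneven in places. In the MeJA 27 h pair 67 features lacked a value in ICC3996 alone and 20 in Lasseter alone, and in the ACC 3 h pair 5 lacked one in ICC3996 alone and 61 in Lasseter alone.

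The size of response, counted as features at least 2-fold from control, was unlike in the 2 samples of most pairs, which have no replicate. After 27 h of MeJA, ICC3996 had 64 of 544 measured features at least 2-fold from control, against 4 of 591 in Lasseter. FLIP94-508C had 8. After 3 h of MeJA, ICC3996 had 20 of 623, against 13 of 626 in Lasseter, and FLIP94-508C had 8. After 3 h of ACC, ICC3996 had 36 of 639, against 115 of 583 in Lasseter, and FLIP94-508C had 218. After 3 h of SA, ICC3996 had 53 of 542, against 155 of 552 in Lasseter, and FLIP94-508C had 56. After 27 h of ACC, ICC3996 had 202 of 580, against 145 of 613 in Lasseter, and FLIP94-508C had 138. After 27 h of SA, ICC3996 had 101 of 597, against 147 of 620 in Lasseter, and FLIP94-508C had 175. The features measured were not the same in each genotype. Among those measured in both after 27 h of MeJA, ICC3996 had 6 above and 47 below by 2-fold, and Lasseter 0 and 2. After 3 h of ACC, ICC3996 had 8 and 17 and Lasseter 19 and 95. The ACC 3 h profile of ICC3996 had a correlation of 0.24 with that of Lasseter at 3 h (n = 578 features) and of 0.44 with that of Lasseter at 27 h (n = 592). With the ICC3996 profile at 27 h its correlation was 0.00 (n = 575). The ACC 3 h profile of Lasseter had a correlation of 0.32 with ICC3996 at 27 h (n = 554) and of 0.20 with Lasseter at 27 h (n = 565), so at ACC both 3 h profiles were more like the other genotype at 27 h than like their own. At MeJA the 3 h profile of ICC3996 had a correlation of 0.51 with Lasseter at 27 h (n = 560), of 0.46 with Lasseter at 3 h (n = 602) and of 0.08 with ICC3996 at 27 h (n = 513). At SA it had 0.31 with Lasseter at 27 h (n = 530) and 0.22 with ICC3996 at 27 h (n = 533). ICC3996 at 3 h was thus nearer to Lasseter at 27 h than to itself at 27 h under all 3 compounds. Lasseter at 3 h was nearer to itself at 27 h than to ICC3996 at SA (0.30 against 0.13) and at MeJA (0.37 against 0.25). These correlations are across features of 1 array design, which are not independent replicates, and the samples were kept as labelled. Whether the ACC columns carry the right labels was not tested. Each comparison below was repeated without each pair in turn.

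How far the genotypes differed depended on the pair. The features at least 2-fold apart were most frequent after 27 h of ACC, at 169 of 567 (29.8%), and after 3 h of SA, at 136 of 517 (26.3%). After 3 h of ACC there were 101 of 578 (17.5%), after 27 h of SA 83 of 578 (14.4%) and after 27 h of MeJA 58 of 524 (11.1%). The 3 h MeJA pair was the closest, with 14 of 602 (2.33%). With 1 sample of each genotype in a pair these counts have no replicate check. They depended on the scale of the samples: once every sample was scaled to the same spread over features, the MeJA 3 h pair had 101 and the ACC 27 h pair 97.

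**Figure D1:**
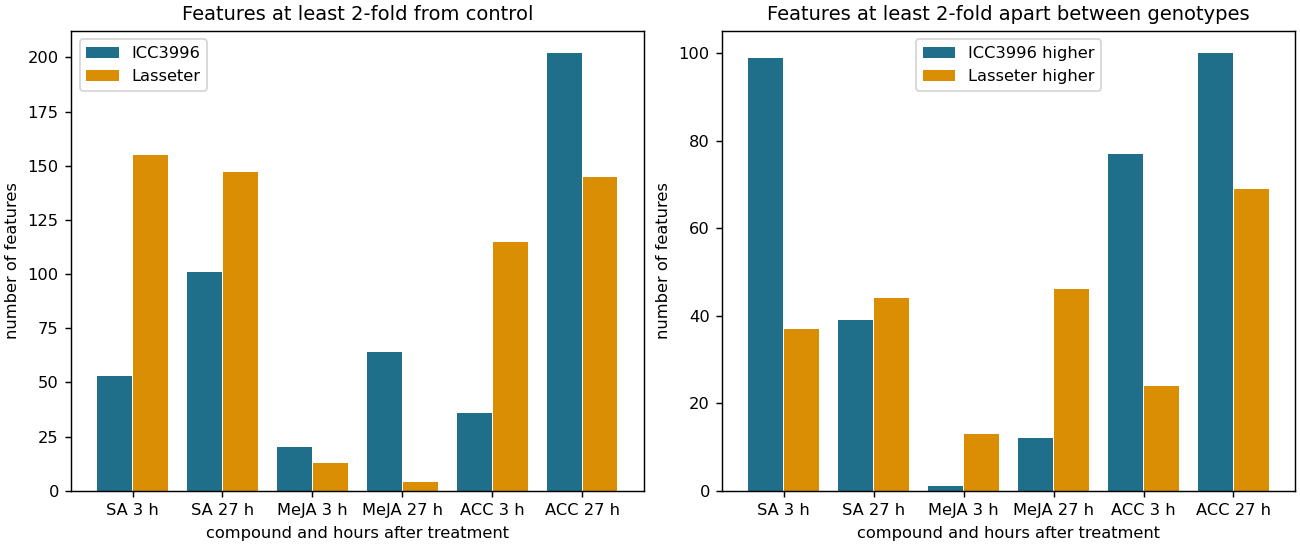
Number of features at least 2-fold from control in ICC3996 and in Lasseter (left) and number at least 2-fold apart between them, by which genotype was higher (right), for each compound and time. ICC3996 had 53 and Lasseter 155 features at least 2-fold from control 3 h after SA, while 27 h after MeJA ICC3996 had 64 and Lasseter 4.

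The genotype that carried the differences also changed from pair to pair. After 3 h of SA, ICC3996 was higher for 99 features and Lasseter for 37. In 67 of the 99, Lasseter was at least 2-fold below control and ICC3996 less than 2-fold above it. Lasseter had 105 features at least 2-fold below control among those measured in both genotypes, against 33 in ICC3996. The ratios of Lasseter lay lower as a whole in that pair, with sample medians of -0.02 in ICC3996 and -0.22 in Lasseter. With the medians subtracted the split was 68 and 61, and with equal spread it was 40 and 31.

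After 3 h of ACC the picture was similar, with ICC3996 higher for 77 features and Lasseter for 24. In 61 of the 77, Lasseter was at least 2-fold below control and ICC3996 less than 2-fold above it. The sample medians of that pair were close, at -0.02 in ICC3996 and 0.00 in Lasseter, and the split was 78 and 22 with medians subtracted and 66 and 39 with equal spread. After 27 h of MeJA the low values were those of ICC3996. ICC3996 was higher for 12 features and Lasseter for 46, and in 37 of the 46 ICC3996 was at least 2-fold below control while Lasseter was less than 2-fold above it. With equal spread that split was 49 and 42.

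After 27 h of ACC, differences ran both ways, with ICC3996 higher for 100 features and Lasseter for 69. The sample medians of that pair were -0.30 in ICC3996 and -0.19 in Lasseter. With the medians subtracted the split was 112 and 54, and with equal spread 59 and 38. In 48 of the 100, ICC3996 was at least 2-fold above control and Lasseter less than 2-fold below it, and in 30 Lasseter was at least 2-fold below and ICC3996 less than 2-fold above. Among features measured in both, 75 were at least 2-fold above control in ICC3996, against 20 in Lasseter. In 52 of the 69, ICC3996 was at least 2-fold below control and Lasseter less than 2-fold above it. After 27 h of SA the split was 39 and 44, and with medians subtracted 29 and 51. By correlation across features this pair was the highest of the 6, at 0.57 (n = 578). It was 0.46 after 3 h of MeJA (n = 602), 0.45 after 27 h of ACC (n = 567), 0.43 after 3 h of SA (n = 517) and 0.32 after 27 h of MeJA (n = 524).

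**Figure D2:**
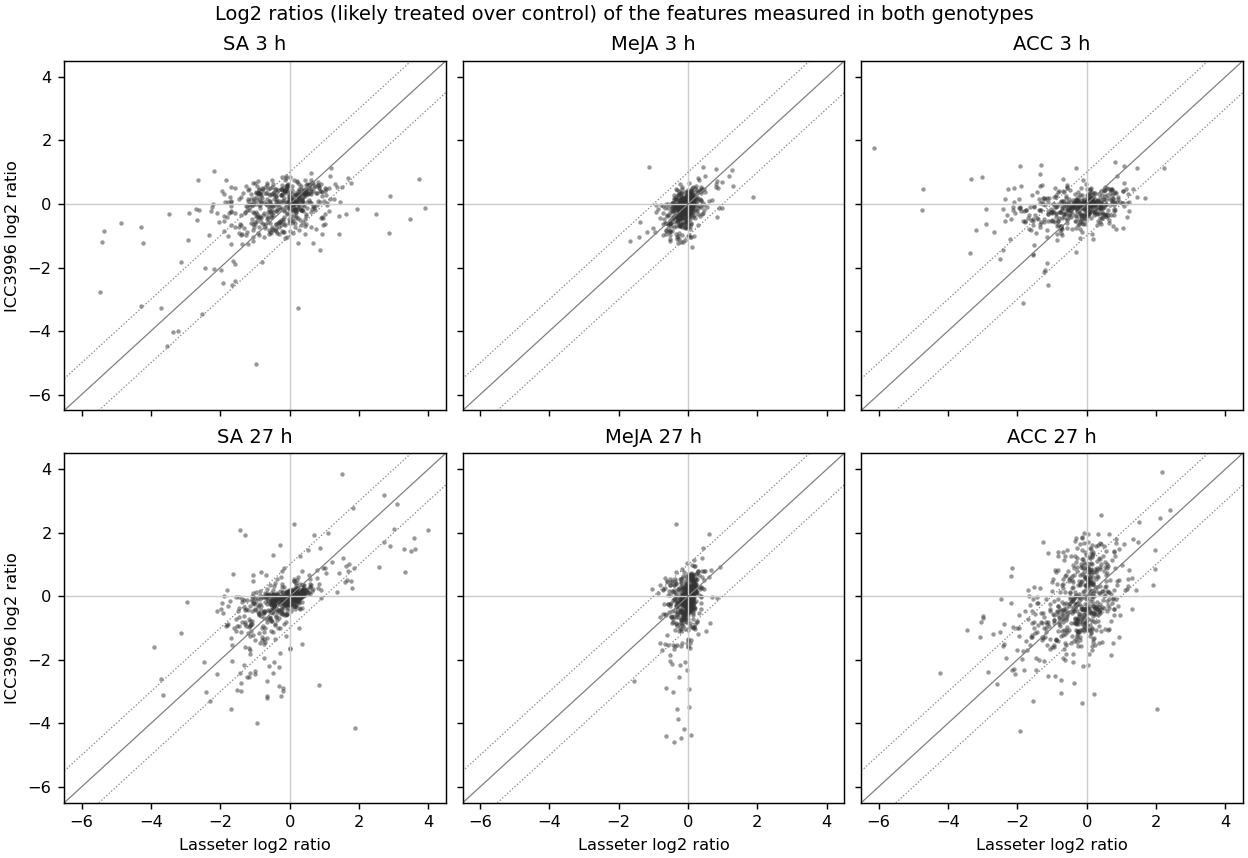
Log2 ratio in ICC3996 (vertical) against Lasseter (horizontal) for every feature measured in both, 1 panel for each compound and time; the solid line marks equal ratios and the dotted lines a 2-fold difference. Points spread along the Lasseter axis 3 h after SA and after ACC, where Lasseter had 105 and 95 features at least 2-fold below control, and along the ICC3996 axis 27 h after MeJA, where ICC3996 had 47.

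Opposite responses of 2-fold or more in each genotype were few, and in some pairs few features could have shown them. Features measured in both and at least 2-fold above control in ICC3996 numbered 8 after 3 h of ACC. Of these, 3 were at least 2-fold below it in Lasseter. The same held for 2 of 75 after 27 h of ACC and 2 of 25 after 27 h of SA. It held for 1 of 2 after 3 h of SA, 1 of 4 after 3 h of MeJA and 0 of 6 after 27 h of MeJA. The reverse, below in ICC3996 and above in Lasseter, was found in 1 of the 30 features at least 2-fold above control in Lasseter after 27 h of SA. After 27 h of ACC it was found in 1 of 20. These counts ask for 2-fold on both sides, and smaller responses on opposite sides of control could also lie 2-fold apart, as U471 did at 3 h of SA, at 0.60 in ICC3996 and -0.64 in Lasseter.

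The size of the responses did not differ detectably between the genotypes over the pairs. The number of features at least 2-fold from control was larger in ICC3996 in 3 of 6 pairs, those of MeJA at both times and of ACC at 27 h, and larger in Lasseter in the other 3. The paired difference was -17.2 ± 69.1 features (SD, n = 6 pairs; two-sided exact permutation p = 0.562, adjusted p = 0.875 over 2 results). The SD of the log2 ratios over features averaged 0.797 in ICC3996 and 0.779 in Lasseter, a paired difference of 0.0179 ± 0.415 (SD, n = 6 pairs; two-sided exact permutation p = 0.875, adjusted p = 0.875). Exchanges within 6 pairs cannot give a p below 0.0312.

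Over all 6 pairs no feature passed the test between ICC3996 and Lasseter. With limma and Benjamini-Hochberg adjustment, 0 of 550 features passed the threshold of 0.05 (0%), and the lowest adjusted p was 0.816. At an unadjusted p under 0.05 there were 14 (2.55%), 9 higher in ICC3996 and 5 higher in Lasseter. Of the 456 features measured in all pairs, 8 (1.75%) had 1 sign of difference in 6 of 6 pairs, 4 in each direction. Random signs in 6 independent pairs would give a share of 0.0312, so this count was no larger than that. For none of the 456 did the 6 ICC3996 values and the 6 Lasseter values separate without overlap (0%). A mean difference of 2-fold or more lay outside the unadjusted 95% interval of limma in 366 of the 550 features (66.5%), and for the other 184 the 6 pairs did not exclude it. Without the ACC 3 h pair 24 features had an unadjusted p under 0.05.

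CA1173 had the largest moderated t of the 8, sign aside. CA1173, LS0818, LS0740 and U021 were chosen for 1 sign in 6 of 6 pairs and a large t. Their shared sign, and an unadjusted interval that misses 0, follow from that choice and are no separate support. Its log2 ratio was lower in ICC3996 in every pair, by 0.41 to 0.95. In ICC3996 it was 0.47 and -1.39 at 3 h and 27 h of SA, -0.99 and -1.54 at those times of MeJA, and -0.07 and -0.44 at those of ACC. In Lasseter the same 6 values were 1.05, -0.79, -0.53, -0.59, 0.41 and -0.03. The ranges of the genotypes overlapped, and the values of both genotypes varied more between conditions than the gap between them did. The mean difference was -0.58 (SE 0.15, 95% interval -0.92 to -0.24, 6 of 6 pairs, limma adjusted p = 0.816), 1.49-fold, and no pair reached 2-fold. With every sample scaled to equal spread it was -0.32, and without the pairing limma's adjusted p was 0.929. MeJA at 27 h held 27.3% of the summed absolute difference. FLIP94-508C lay between the other two in all 4 SA and MeJA conditions and outside them after ACC, at 1.04 and -1.29.

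LS0818 was also lower in ICC3996 in 6 of 6 pairs, with a mean difference of -0.52 (SE 0.19, 95% interval -0.96 to -0.08, limma adjusted p = 0.816). Its values in ICC3996 were -0.45 and -1.32 under SA, -0.51 and -0.28 under MeJA, and -0.10 and -0.41 under ACC, in the order 3 h and 27 h. In Lasseter they were 0.24 and -0.66, -0.30 and -0.10, and 0.06 and 0.80. All 6 ICC3996 values were below control, and Lasseter lay on both sides of it. The 27 h ACC pair, with -1.21, was its only 2-fold difference and held 39.1% of the summed absolute difference.

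LS0740 and U021 were higher in ICC3996 in 6 of 6 pairs. LS0740 was at -0.13 and -0.11 under SA, 0.36 and 0.53 under MeJA, and 0.25 and 0.58 under ACC in ICC3996. In Lasseter it was at -0.23 and -0.55, -0.03 and 0.25, and -0.60 and 0.00. ICC3996 was thus above control in all 4 MeJA and ACC samples, where Lasseter lay from -0.60 to 0.25. The mean difference was 0.44 (SE 0.16, 95% interval 0.08 to 0.80, limma adjusted p = 0.816), and the largest gap, 0.84, was at 3 h of ACC. FLIP94-508C was below both genotypes in 5 of the 6 conditions. U021 had a mean difference of 0.30 (SE 0.15, 95% interval -0.06 to 0.66, limma adjusted p = 0.816), with 0.72 at 27 h of ACC and 0.47 at 3 h of SA and no more than 0.28 elsewhere.

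**Figure D3:**
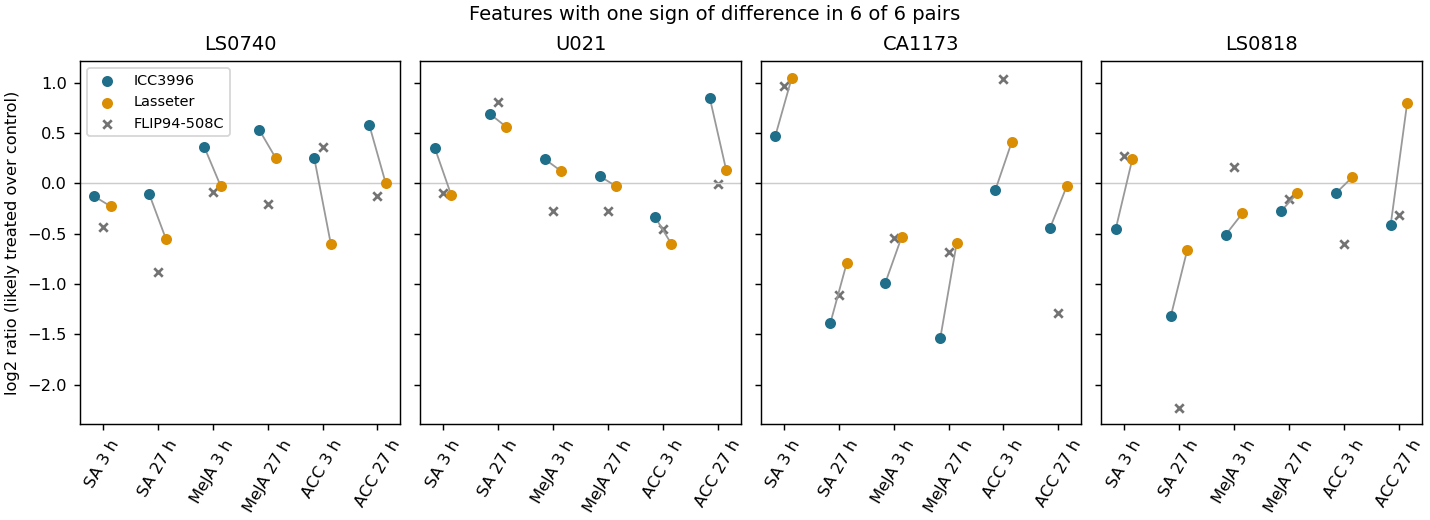
Log2 ratios of the 4 features with the largest moderated t among those with 1 sign of difference in 6 of 6 pairs, in ICC3996 and Lasseter joined by a line for each compound and time, with FLIP94-508C as crosses. CA1173 and LS0818 were lower in ICC3996 in each pair and LS0740 and U021 higher. Sign aside, the mean gap was smaller than the SD over conditions of each genotype in CA1173 and U021. It was larger in LS0740 (0.44, against 0.31 in ICC3996 and 0.33 in Lasseter) and in LS0818 (-0.52, against 0.42 and 0.50).

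The steadiest differences were small and the largest were not steady. Of the 8 features with 1 sign in 6 of 6 pairs, 6 were never 2-fold apart. Of the 456, 208 were 2-fold apart in no pair, 152 in 1, 71 in 2, 22 in 3 and 3 in 4, and 0 in 5 or 6. Among the 96 that were 2-fold apart in 2 or more pairs, the direction was the same each time in 39 and changed between pairs in 57. The pair with a feature's largest difference was ACC 27 h for 192 features (42.1%) and SA 3 h for 122 (26.8%), and the MeJA pairs at 3 h and 27 h held 7 (1.54%) and 43 (9.43%). With equal spread, ACC 27 h still held the most, at 133 (29.2%), followed by MeJA 27 h at 97 (21.3%). A further 84 features had 1 sign in 5 of 6 pairs, 50 higher in ICC3996 and 34 higher in Lasseter. The pair that broke the sign was MeJA 3 h in 24 of them and ACC 3 h in 21, and ACC 27 h in 7. The differences at MeJA 3 h were the smallest, so a sign there can rest on a value near 0. Their SD over features was 0.36, against 0.89 at ACC 3 h and 1.02 at ACC 27 h.

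Under SA, the mean of the 3 h and 27 h pairs passed limma's test for 0 of 511 features (0%), and 28 had an unadjusted p under 0.05 (5.48%), 21 higher in ICC3996 and 7 higher in Lasseter. That count was 51 without the 27 h pair and 16 without the 3 h pair, where the single SA pair left is assumed to vary like the pairs of the other compounds. CA1126 was at -0.41 and 0.69 in ICC3996 after 3 h and 27 h, against -1.82 and -1.63 in Lasseter. The low values of Lasseter were confined to SA among its samples, since under MeJA and ACC Lasseter lay between -0.44 and -0.13. The SA difference was 1.86 (SE 0.38, limma adjusted p = 0.737), 3.64-fold, and the 4 other pairs had differences of -0.57 to 0.26. U471 was at 0.60 and -0.14 in ICC3996 and at -0.64 and -1.72 in Lasseter (difference 1.40, SE 0.32, limma adjusted p = 0.76). Under ACC its difference had the other sign, at -0.46 and -0.84.

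Lower in ICC3996 under SA were U477 and U486. U477 was at -0.39 and -3.14 in ICC3996, against 1.44 and -0.25 in Lasseter, and FLIP94-508C was at -3.24 and -1.65. Its SA difference was -2.36 (SE 0.40, limma adjusted p = 0.649), 5.12-fold, while the other 4 pairs had -0.79 to 0.47. U486 was at -1.44 and -2.23 in ICC3996 and at 0.88 and -0.30 in Lasseter (difference -2.12, SE 0.35, limma adjusted p = 0.737). It had no difference in 2 of the other pairs because of omitted spots.

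Under MeJA, 0 of 486 features passed in limma (0%) and 5 had an unadjusted p under 0.05 (1.03%), all 5 higher in Lasseter. In U344 and U380, the 2 of them with the largest moderated t, the 27 h sample of ICC3996 carried the difference. U344 was at -0.33 and -4.45 in ICC3996 after 3 h and 27 h, against 0.12 and -0.22 in Lasseter. The difference was -2.34 (SE 0.85, limma adjusted p = 0.999), of which the 27 h pair had -4.23 and the 3 h pair -0.46. U380 was at -0.65 and -2.91 in ICC3996, against 0.29 and 0.02 in Lasseter (difference -1.94, SE 0.60, limma adjusted p = 0.999). FLIP94-508C was near control in both at 27 h of MeJA, at -0.09 for U344 and -0.16 for U380. Higher in ICC3996 were LS0081, with 1.16 and 0.05 against -1.13 and -0.09 in Lasseter, and U071, with -0.13 and 1.15 against -0.30 and 0.17. Neither passed (limma adjusted p = 0.999 for both). Without the 27 h pair, 1 feature had an unadjusted p under 0.05 for MeJA, and without the 3 h pair 16 had, again with 1 MeJA pair and the spread of the other compounds.

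Under ACC, 0 of 534 features passed in limma (0%) and 16 had an unadjusted p under 0.05 (3%), 13 higher in ICC3996 and 3 higher in Lasseter. That count was 9 without the MeJA 3 h pair. It was 108 without the 3 h ACC pair and 42 without the 27 h ACC pair, but there 1 ACC pair is left and the spread comes from SA and MeJA alone. U464 was at -1.56 and -0.62 in ICC3996 after 3 h and 27 h, against -3.36 and -2.99 in Lasseter. Both genotypes were below control and Lasseter further, by 2.09 (SE 0.36, limma adjusted p = 0.938), 4.25-fold, or 1.30 with equal spread. Under SA it was not measured in ICC3996, and its fit rests on 4 pairs. LS0943 was at -0.48 and -0.09 in ICC3996 and at -2.17 and -1.17 in Lasseter (difference 1.38, SE 0.39, limma adjusted p = 0.938). FLIP94-508C lay between them at both times, at -1.08 and -0.97.

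U287 and U516 were lower in ICC3996 under ACC. U287 was at -0.32 and -1.02 in ICC3996, against 0.54 and 0.52 in Lasseter, so the genotypes lay on opposite sides of control at both times (difference -1.20, SE 0.36, limma adjusted p = 0.938). U516 was at 0.19 and -2.73 in ICC3996 and at 0.64 and -0.36 in Lasseter (difference -1.40, SE 0.49, limma adjusted p = 0.938). The 27 h pair held 66.9% of the summed absolute difference of U516 over all 6 pairs.

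At ACC the 2 times opposed each other. Over 545 features the differences at 27 h and at 3 h had a correlation of -0.33 and the same sign in 39.3%. Of 42 features that were 2-fold apart at both times, 6 kept the direction and 36 turned it. In 21 of the 36, ICC3996 was lower than Lasseter at 27 h and higher at 3 h, and in 15 it was higher at 27 h and lower at 3 h. For SA the correlation was 0.12 over 513 features, with 13 features 2-fold apart at both times, 7 of one direction and 6 turned. For MeJA it was -0.15 over 495 features with 3 such features, 1 of one direction and 2 turned. Control samples were extracted at each time point per the series' design text, but the points share the array's features and the authors' averaging, so the correlations are descriptions. The turned ACC features numbered 32 of 38 with medians subtracted and 31 of 32 with equal spread. The ICC3996 sample at 3 h of ACC, the one unlike its Lasseter partner above, enters every one of these ACC values, and its part in them was not tested.

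**Figure D4:**
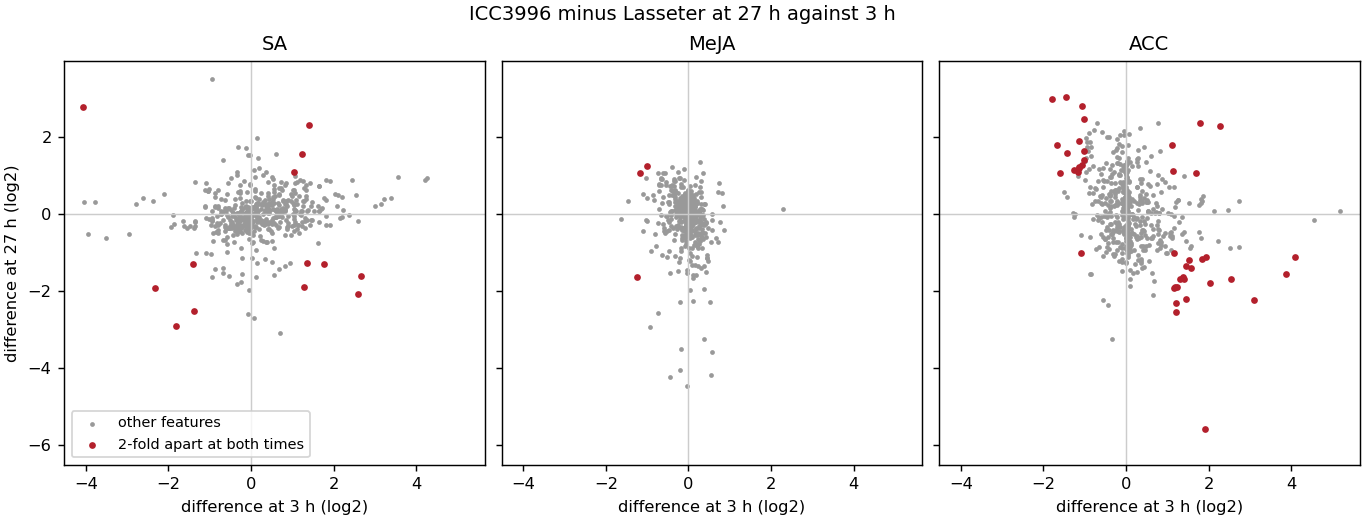
Difference between ICC3996 and Lasseter (log2) at 27 h (vertical) against 3 h (horizontal) for each feature measured at both times, 1 panel for each compound; red points were 2-fold apart at both times. Under ACC 36 of the 42 red points lie in the quadrants of opposite sign, under SA 6 of 13.

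Averaged over the compounds at 3 h, limma passed 0 of 542 features (0%), and 17 had an unadjusted p under 0.05 (3.14%), 10 higher in ICC3996 and 7 higher in Lasseter. That count ran from 8 without the SA pair to 33 without the MeJA pair. LS0752 was at -0.30, 0.83 and 0.59 in ICC3996 under SA, MeJA and ACC, against -2.89, 0.28 and -1.28 in Lasseter (difference 1.67, SE 0.55, limma adjusted p = 0.997). CA0043 was at 0.01, -0.02 and -0.43 in ICC3996 and at -1.10, -0.30 and -1.68 in Lasseter (difference 0.88, SE 0.31, limma adjusted p = 0.997). In both features SA and ACC carried the difference and MeJA added little. U319 was lower in ICC3996 at 3 h, at -0.19 and -2.55 under SA and ACC against 0.74 and -1.12 in Lasseter, and its 3 h differences were -0.93, -1.01 and -1.43 (mean -1.12, SE 0.35, limma adjusted p = 0.997). U308 was lower too under SA, MeJA and ACC, at -0.66, -0.16 and 0.05 against 0.97, 0.12 and 0.79 (difference -0.88, SE 0.33, limma adjusted p = 0.997).

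At 27 h, 0 of 546 features passed in limma (0%) and 29 had an unadjusted p under 0.05 (5.31%), 11 higher in ICC3996 and 18 higher in Lasseter. Without the SA pair 54 had. U250 was at -2.43, -3.85 and -1.66 in ICC3996 under SA, MeJA and ACC, against -0.47, -0.29 and -0.65 in Lasseter. All 3 values of ICC3996 were lower than all 3 of Lasseter, and FLIP94-508C was at -2.07, -0.22 and -1.54, low under SA and ACC and near control under MeJA. The difference was -2.18 (SE 0.48, limma adjusted p = 0.64), 4.52-fold. LS0132 had the same order, with -1.35, -4.37 and -2.16 in ICC3996 and -0.42, 0.10 and 0.05 in Lasseter (difference -2.53, SE 0.69, limma adjusted p = 0.64), and the MeJA pair held 49.1% of its summed absolute difference. Higher in ICC3996 were U447, at 0.04, 0.55 and -0.48 against -0.58, -0.53 and -1.78 in Lasseter, and CA0032, at 0.18, 0.38 and -0.82 against -0.86, -0.34 and -1.31. Their differences were 1.01 (SE 0.27, limma adjusted p = 0.64) and 0.75 (SE 0.24, limma adjusted p = 0.64).

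**Figure D5:**
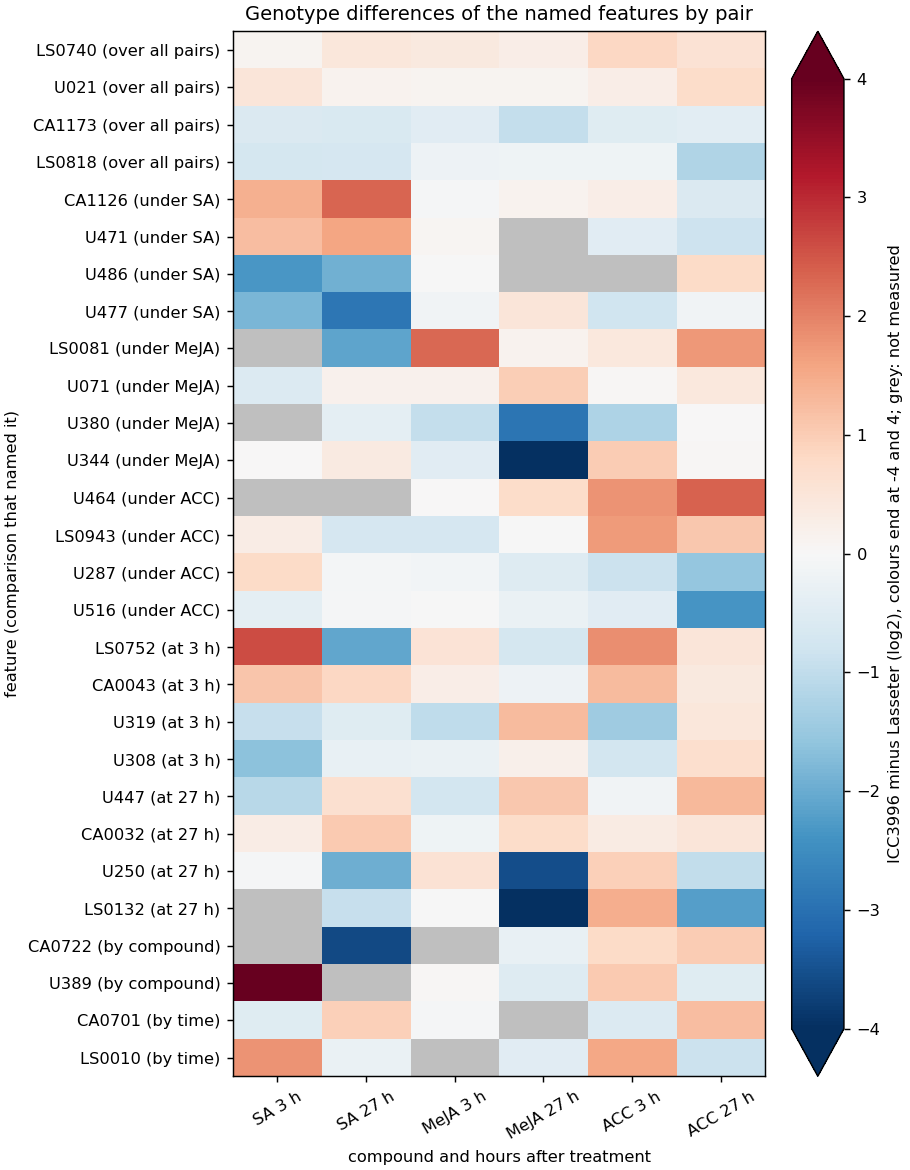
Difference between ICC3996 and Lasseter (log2 ratio; red higher in ICC3996, blue higher in Lasseter, grey not measured) in each pair for the features named for the comparisons over all pairs, by compound and by time. The features named over all pairs keep 1 colour across the map in pale shades. Among the deepest colours are -4.46 for LS0132 and -4.23 for U344 at 27 h of MeJA. Other features have strong colours in 2 pairs, such as U477 at -1.82 and -2.89 under SA and U464 at 1.80 and 2.37 under ACC.

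Whether the genotype difference itself depended on time or compound was tested directly. Between the times, 0 of 538 features passed in limma (0%) and 28 had an unadjusted p under 0.05 (5.2%), a count that ran from 17 without the SA 3 h pair to 41 without the SA 27 h pair. LS0010 had differences of -0.27, -0.46 and -0.87 at 27 h of SA, MeJA and ACC, against 1.81 at 3 h of SA and 1.55 at 3 h of ACC (27 h minus 3 h -2.21, SE 0.39, limma adjusted p = 0.722). U250 had the same order, at -2.67 for 27 h minus 3 h (SE 0.68, limma adjusted p = 0.806), with the 27 h differences of -1.96 and -3.56 under SA and MeJA, and the ACC levels given above, against -0.05, 0.58 and 0.96 at 3 h of SA, MeJA and ACC. U447 had differences of 0.63, 1.08 and 1.31 at 27 h, against -1.12, -0.73 and -0.15 at 3 h (27 h minus 3 h 1.67, SE 0.39, limma adjusted p = 0.806). For CA0701 they were 0.95 and 1.22 at 27 h of SA and ACC, against -0.49, -0.05 and -0.55 at 3 h of SA, MeJA and ACC (27 h minus 3 h 1.45, SE 0.38, limma adjusted p = 0.806). In LS0010, U447 and CA0701 every measured 27 h difference had the other sign from every measured 3 h difference.

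Between the compounds, 0 of 542 features passed limma's F test (0%) and 13 had an unadjusted p under 0.05 (2.4%), against 54 without the ACC 3 h pair and 7 without the MeJA 27 h pair. The 2 with the largest F each rested on 1 SA value. U389 was at -0.84 in ICC3996 and -5.36 in Lasseter at 3 h of SA, a difference of 4.51, and its other 4 differences lay between -0.53 and 1.06 (limma F test, adjusted p = 0.992). CA0722 was at -2.78 in ICC3996 and 0.84 in Lasseter at 27 h of SA, a difference of -3.62, against -0.29 at 27 h of MeJA and 0.78 and 1.03 at 3 h and 27 h of ACC (limma F test, adjusted p = 0.992). Their SA value at the other time was missing in at least 1 genotype, so no repeat under SA exists for either.

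Single pairs held larger gaps, which have no repeat and no test. At 3 h of SA the lowest difference was that of LS0403, at -5.03 in ICC3996 and -0.97 in Lasseter, and at 27 h of SA the same feature was at -0.18 in ICC3996 and -2.96 in Lasseter. At 27 h of SA, U434 was at 2.08 in ICC3996 and -1.42 in Lasseter, and U400 at -4.14 in ICC3996 and 1.89 in Lasseter, the widest gap of that pair at -6.03. U400 was also low in ICC3996 at 27 h of MeJA, at -4.41, against -0.63 in Lasseter. At 3 h of MeJA the extremes were LS0081, at a difference of 2.29, and U212, at 0.23 in ICC3996 and 1.88 in Lasseter.

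The widest gap of all pairs was that of U015 at 3 h of ACC, with 1.78 in ICC3996 and -6.15 in Lasseter. U015 was measured in both genotypes in only 1 other pair, 27 h of MeJA, where it was at 2.27 in ICC3996 and -0.35 in Lasseter, the highest difference of that pair. CA0756 turned between the ACC times: it was at 1.72 in ICC3996 and -1.27 in Lasseter at 27 h, against -0.76 in ICC3996 and 1.04 in Lasseter at 3 h, the lowest difference of the 3 h pair. LS0103 likewise was at 0.89 in ICC3996 and -2.17 in Lasseter at 27 h of ACC, the highest difference of that pair, against -0.68 and 0.76 at 3 h. U347 ran the other way, at -3.56 in ICC3996 and 2.02 in Lasseter at 27 h of ACC, against 0.55 and -1.36 at 3 h.

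FLIP94-508C, known as moderately resistant, stood with neither genotype throughout. Among the features 2-fold apart between ICC3996 and Lasseter with a FLIP94-508C value, it was nearer to ICC3996 in 104 of 167 (62.3%) after 27 h of ACC and in 75 of 133 (56.4%) after 3 h of SA. It was nearer to ICC3996 in 25 of 73 (34.2%) after 3 h of ACC and in 7 of 57 (12.3%) after 27 h of MeJA. After 27 h of SA the count was 39 of 75 (52%), and after 3 h of MeJA 4 of 14 (28.6%). After 27 h of ACC its profile had a correlation of 0.74 with ICC3996 and 0.39 with Lasseter over 562 features, and after 3 h of ACC of -0.08 with ICC3996 and 0.37 with Lasseter over 523. After 3 h of SA these were 0.18 and 0.48 over 507, so by correlation it was nearer to Lasseter there, unlike the count above. After 27 h of SA they were 0.59 and 0.62 over 567. Under MeJA they were -0.06 and 0.08 at 3 h (n = 557) and 0.28 and 0.31 at 27 h (n = 520).

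The identifier classes had the same median difference, 0.05, which is also that of all 550 features. At an unadjusted p under 0.05 there were 6 of 103 CA features (5.83%), 3 of 98 LS features (3.06%) and 5 of 349 U features (1.43%), against 2.55% of all. Features of the LS class were 2-fold apart in 30.5% at 3 h of ACC and 23.7% at 27 h of SA, where all features had 17.5% and 14.4%, and in 5.83% at 27 h of MeJA, where all had 11.1%. These shares are descriptions, since the features of a class come from the same samples.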

How the data were processed

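The deposited table holds 1 column per sample of log2 ratios, which per the series' design text the authors made with Jaguar 2.0, ImaGene 5 (5.5 in the deposited readme) and GeneSight 3: mean local background subtracted, flagged spots omitted, Lowess normalisation, a Cy5/Cy3 ratio, a shifted logarithm and combined duplicate spots. The labels and design text do not state the size of the shift, which pulls dim spots towards 0. The authors' 54 slides gave the averages of 3 biological replications; the single replications were not used here.

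The 12 control features were left out. ICC3996 minus Lasseter was formed within each compound and time. limma 3.58.1 (R 4.3.3) was fitted on the differences, with 1 mean over all pairs, per compound or per time (5, 3 and 4 residual degrees of freedom), for features with at least 4 differences. A compound's test needed both of its pairs and a time's test at least 2, except that a fit with 1 pair of a compound left out tested the remaining pair against the spread of the others. P-values are two-sided, Benjamini-Hochberg adjusted, and measure the spread between pairs, which includes compound and time effects. Sample-level values had exact permutation tests. The scripts were tested on simulated data. Named features are the 2 largest moderated t in each direction of a comparison with 1 sign in its pairs (2 by F for compounds, 2 in each direction for times without the sign rule) and the extremes of each pair. Samples, features and tests were chosen with earlier results of these data known. Arrays give no read depth, and their number and the omitted spots limit precision. Alternatives changed medians, spread, filters, variance model, weights, pairing and left-out pairs.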

Additional observations from a re-analysis of the deposited data

Results flagged for a closer look

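Over the samples of a genotype or the 6 pairs, 81 groups of values, those of sample and pair summaries and of the named features, were searched for 1 value far from the others, and 13 values stood apart by a gap test. The test marks about 1 in 20 groups by chance, a rate that does not hold here because most features were named for large differences. The 6 samples of a group differ in compound and time, so such a gap need not be an error. In ICC3996 the median log2 ratio at 27 h of ACC was -0.30, far below its other medians. Most outlying features of ICC3996 lay in its 27 h samples: at 27 h of MeJA U344 (-4.45), U380 (-2.91) and U071 (1.15), at 27 h of SA U477 (-3.14) and LS0818 (-1.32), and at 27 h of ACC U347 (-3.56) and U516 (-2.73). LS0403 was at -5.03 in ICC3996 at 3 h of SA. In Lasseter the outlying values were U389 at -5.36 at 3 h of SA, LS0081 at 3.61 and LS0403 at -2.96 at 27 h of SA, and CA0701 at -1.42 at 27 h of ACC. Of the 12 outlying feature values 10 were below control, or above it if the ratio runs the other way.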

How the results depend on the processing

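The 8 comparisons between ICC3996 and Lasseter had 0 features past the threshold in each of 100 fits under other settings, with 0.0804 as the lowest adjusted p in limma (ACC without its 27 h pair, a test of 1 ACC pair). They include the fit without the pairing by compound and time (no replicate block, 0 features, 7 at an unadjusted p under 0.05), all 18 samples (0 and 15), the methods' t-test (0 and 12) and exact sign flips (0 and 8). Exact sign flips over 6 pairs cannot give a p below 0.0312, so passing adjustment would need very many features at that p. Left-out pairs gave 0 to 0 features, while unadjusted counts moved, as given beside each comparison. The paired difference in features 2-fold from control stayed below 0, at -32.6 to -0.2 with a pair left out. That in SD was -0.0146 over features in all 12 samples, and -0.131 to 0.0946 with a pair left out, the lowest without MeJA 27 h; the cause was not tested. Chosen after seeing the data, equal spread changed the features 2-fold apart to 71 at SA 3 h, 101 at MeJA 3 h, 91 at MeJA 27 h and 97 at ACC 27 h, as scaling by spread does. Equal spread also gave -1.89 for U319 at 3 h and -1.37 for LS0010 between times. LS0132 at 27 h was -1.57 without the MeJA pair and U308 at 3 h was -0.51 without the SA pair. Of 383 values of named features under alternatives 7 were marked as moved, but that mark left out large changes. Under MeJA, U344 went from -2.34 to -0.46 without the 27 h pair, and LS0081 from 1.21 to 0.14 without the 3 h pair. The sign of most values could not turn, since the features were chosen for 1 sign. Averaged values and 6 pairs limit precision.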
